A study of Rattus norvegicus with 9 samples.

Results

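Natural killer (NK) complex and other C-type lectin receptor genes were followed in rat back skin that was inflamed with imiquimod or left untreated. They were taken as all rows of the deposited tables whose gene symbol begins with Klr, Ly49 or Clec followed by a digit, leaving out Clec9a. This gave 48 of the 6197 gene IDs in either table. Of these, 46 were among the 6025 rows of the table of imiquimod against untreated skin, 3 were among the 399 rows of the table of lidocaine with imiquimod against imiquimod, and only Clec2l was in both. The rows are genes that the authors had selected as differing, so a receptor gene that is missing from a table has no value here and cannot be called unchanged. RefSeq lists 72 protein-coding rat genes that fit the naming rule, and 27 of them had no row under their own symbol, among them Klrb1b, Klrc2, Klra17 and Clec12b.

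The libraries came from wild-type Sprague Dawley rats of 250 g, and all are of back skin taken on day 7. The untreated group had no treatment of any kind. The imiquimod group received imiquimod, an agonist of Toll-like receptor 7 that induces psoriasis-like skin inflammation, on the back for 6 days. The third group received the same imiquimod course and, from day 3, epidural injections of 1% lidocaine on 4 days; lidocaine silences nerves by blocking their voltage-gated sodium channels. Each group had 3 libraries. No vehicle cream group and no sham epidural group was analysed here, so imiquimod cannot be told apart from its vehicle, nor lidocaine from the injection. The labels do not say that each library is a separate animal, so p-values measure the spread between these libraries, which may be technical.

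NK cells read the surface of other cells through lectin-like receptors whose genes lie side by side in the NK gene complex. Receptors with an inhibitory motif recruit the phosphatases encoded by Ptpn6 and Inpp5d and restrain the cell, while activating receptors pair with signalling adaptors encoded by Tyrobp or Hcst. In rodents the Ly49 receptors bind MHC class I molecules, and the Dectin-1 and Dectin-2 gene clusters encode receptors by which dendritic cells, macrophages and neutrophils bind sugars and lipids of microbes and dead cells, many of them signalling through Fcer1g, Syk and Card9. Skin holds such receptors on its myeloid cells and on the NK and T cells that enter it.

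Promoter windows from RefSeq (assembly GRCr8), running from 250 bases before to 50 after the gene start, were found for 38 of the 46 member symbols. The Ly49si2 and Ly49si3 windows are shown because they are the most alike of the Ly49 windows, with the bases that differ between the pair in capitals. Both read 5′ to 3′ on the minus strand, Ly49si2 at chr4:165397220-165397519 and Ly49si3 at chr4:165188046-165188345, and they differ at 3 of 300 positions. In both windows the 50 bases after the gene start begin with the letters atg, so this start may be a start codon and the window may not hold the promoter.
Ly49si2: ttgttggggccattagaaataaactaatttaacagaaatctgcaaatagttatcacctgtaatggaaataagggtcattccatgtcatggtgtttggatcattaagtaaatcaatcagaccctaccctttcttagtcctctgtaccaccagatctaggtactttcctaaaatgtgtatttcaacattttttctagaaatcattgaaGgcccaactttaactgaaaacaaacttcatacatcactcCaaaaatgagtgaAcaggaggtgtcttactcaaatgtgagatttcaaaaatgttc
Ly49si3: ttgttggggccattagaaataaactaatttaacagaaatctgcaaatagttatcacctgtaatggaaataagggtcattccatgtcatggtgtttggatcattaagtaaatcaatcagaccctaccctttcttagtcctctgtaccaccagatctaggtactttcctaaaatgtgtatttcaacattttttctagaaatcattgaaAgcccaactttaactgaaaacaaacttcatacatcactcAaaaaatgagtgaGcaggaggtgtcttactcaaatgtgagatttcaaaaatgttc
Over the 11 Ly49 genes with a window, identical bases in pairwise global alignments with free end gaps made up a median of 65.3% of the window in the 55 pairs, from 0.333% to 99.0%, and 23 pairs reached 70%. The lowest value came from only 2 aligned bases, so low values do not show that the promoters themselves differ. None of the 297 pairs of a Ly49 gene with another member reached 70%, and the highest had 54.0%. The sequences of Klrk1, which encodes the activating NK and T cell receptor NKG2D, and Clec4e, which encodes the myeloid receptor Mincle, are shown for a lymphoid and a myeloid member with large differences. Capitals mark every match, on either strand, to 5 short motifs: the T-box core TCACAC, the RUNX core TGTGGT, the interferon-stimulated element core GAAANNGAAA, the NF-kB core GGGANNNTCC and the PU.1 core GAGGAA. Both lie on the minus strand, Klrk1 at chr4:164778333-164778632 and Clec4e at chr4:158298418-158298717.
Klrk1: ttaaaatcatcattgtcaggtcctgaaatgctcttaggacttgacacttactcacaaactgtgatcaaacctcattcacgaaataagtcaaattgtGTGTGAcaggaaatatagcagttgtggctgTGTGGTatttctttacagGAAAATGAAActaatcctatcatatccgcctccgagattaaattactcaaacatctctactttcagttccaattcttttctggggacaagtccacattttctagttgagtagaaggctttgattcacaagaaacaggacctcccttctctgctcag
Clec4e: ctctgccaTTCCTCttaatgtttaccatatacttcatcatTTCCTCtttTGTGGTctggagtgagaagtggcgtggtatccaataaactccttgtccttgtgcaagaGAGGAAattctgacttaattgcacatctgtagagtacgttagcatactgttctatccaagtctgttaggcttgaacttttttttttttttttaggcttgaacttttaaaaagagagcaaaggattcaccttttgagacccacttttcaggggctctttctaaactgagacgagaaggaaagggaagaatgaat
The Klrk1 window held 1 T-box, 1 RUNX and 1 interferon-stimulated match, and the Clec4e window held 3 PU.1 matches and 1 RUNX match; none of these overlapped another. The PU.1 letters occurred in 21 of the 38 member windows (55.3%) and in 27.5% of all 27457 rat promoters of the same length. The RUNX letters occurred in 13 (34.2%) against 16.9% of all promoters. The interferon-stimulated letters occurred in 5 (13.2%) against 3.77%, the T-box letters in 5 (13.2%) against 13.5%, and the NF-kB letters in 2 (5.26%) against 4.14%. These are letter matches, not binding sites, and the alike Ly49 windows are not independent of each other.

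In imiquimod-treated skin, lectin receptor genes of lymphoid and myeloid cells were higher almost throughout. Of the 46 rows, 40 were higher past an adjusted p of 0.05 (limma with Benjamini-Hochberg adjustment over all 6025 rows), where 47.0% of all rows were. Another 4 were lower (Clec2l, Clec3a, Clec3b and Clec11a), where 40.8% of all rows were, and Klrh1 and Clec16a did not pass. The untreated and imiquimod libraries did not overlap in 44 rows, against 86.7% of all rows. The median difference of the members was 6.10 on the log2(normalized count + 1) scale, and 5.73 with the genes at 0 reads in a group set to their bound against 3 reads per library. The median over all rows, which mixes rows of both directions, was 1.15, and 1.09 with bounds. Over the 2831 rows that were higher it was 2.38, and 2.24 with bounds. Of the members, 13 had no read in any untreated library, as had 378 of all 6025 rows and 248 of the 2831 higher rows. Because rows were selected on these same libraries, all adjusted p-values are too small. The submitters' size factors set the scale. When the libraries were instead rescaled to the same median over listed rows, the median of all rows moved to 0.57 and that of the members to 5.53, and no member changed sign.

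**Figure D1:**
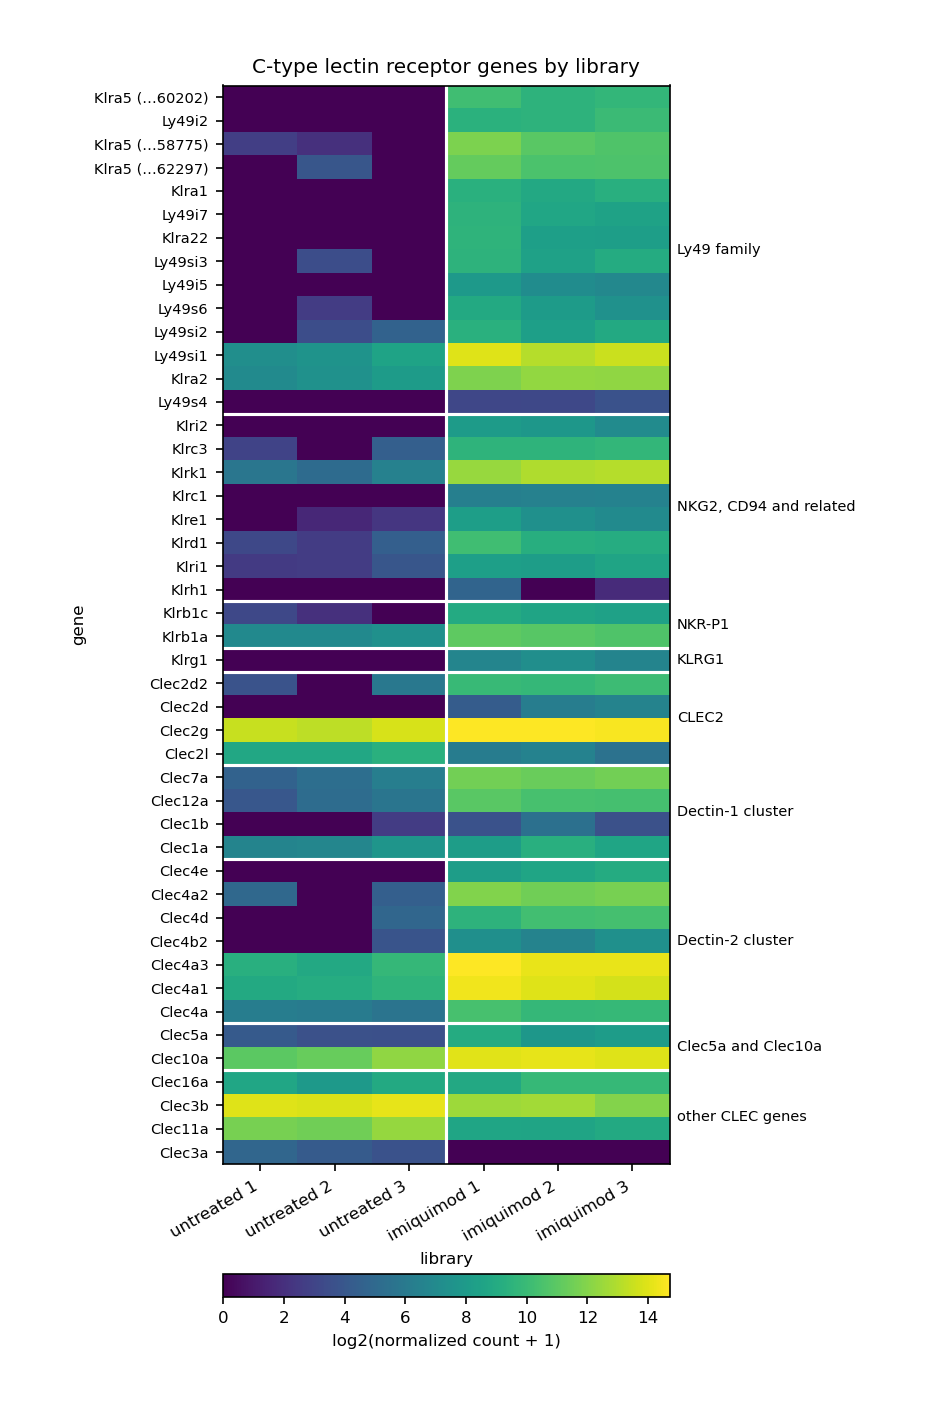
Deposited log2(normalized count + 1) of each of the 46 rows (vertical axis, ordered by receptor group) in the 3 untreated and 3 imiquimod libraries (horizontal axis), with colour for the level. Dark cells on the left mark the 13 genes with no untreated read, and Clec3a alone is at 0 in all 3 imiquimod libraries.

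Ly49 receptors, the MHC class I receptors of rodent NK cells, made up the largest receptor group with 14 rows, all of them higher with imiquimod and none overlapping. Klra1 had 0 reads in all 3 untreated libraries and 642, 461 and 633 normalized counts in imiquimod replicates 1, 2 and 3. Ly49i2, where the letter i stands for an inhibitory receptor, likewise had no untreated read and 671, 743 and 1027 normalized counts. For Klra5 the table held 3 gene IDs, and the row ENSRNOG00000060202 had no untreated read and 1192, 739.8 and 841 normalized counts. In all of these rows the untreated libraries were empty and each of the imiquimod libraries was not. Measured against 3 reads per library, the imiquimod means were at least 181-fold higher for Klra1, at least 254.3-fold for Ly49i2 and at least 289-fold for this Klra5 row, each with a limma adjusted p of 1.35e-05.

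Ly49i7 had no untreated read and 734, 419 and 349 normalized counts with imiquimod, at least 156.6-fold higher (limma adjusted p = 2.55e-05). Its reads were identical in all 6 libraries to those of LOC100911272, a row outside the naming rule whose deposited description is that of a Klra5-like gene, so the reads of these genes cannot be told apart. The other Ly49 rows at 0 in untreated skin were Klra22, Ly49i5 and Ly49s4, with bounds of at least 141.9-fold, 52.9-fold and 2.94-fold. Ly49s4, a transcribed pseudogene in RefSeq, had only 9, 8 and 15 reads in the imiquimod libraries.

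Reads were present in untreated skin for the remaining 7 Ly49 rows, Klra2, the other Klra5 rows, Ly49s6, Ly49si1, Ly49si2 and Ly49si3, and their differences ranged from 4.63 to 9.53 on the log2 scale. Ly49si1 and Klra2 had the most untreated reads, 132 to 370 and 113 to 267 per library. In Ly49si1 the normalized counts were 152, 185 and 375 in untreated skin and 16205, 8537 and 11684 with imiquimod, a difference of 5.74 ± 0.45 (SE, n = 3 per group, limma adjusted p = 0.000225). Every imiquimod library was far above every untreated library. Of the genes with the near-identical windows shown above, Ly49si2 had 0, 10.3 and 23.3 normalized counts in the untreated libraries and 649, 319 and 479.8 with imiquimod. Ly49si3 had 0, 10.3 and 0 in the untreated libraries and 719, 345 and 532 with imiquimod. Both had their highest value in imiquimod replicate 1 and their lowest imiquimod value in replicate 2, as did Ly49si1, which lies between them. The Ly49si1 window aligned with either of theirs over only 27 bases, so the likeness of these promoters cannot be judged from the windows. Single Ly49 rows are uncertain, because the sources used here do not say how reads shared by such copies were counted. Over the 14 rows the summed normalized counts were 288, 399.8 and 669 in untreated replicates 1 to 3 and 32045, 20810.0 and 24197 with imiquimod. The median difference of the group was 8.26, or 7.29 with bounds.

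**Figure D2:**
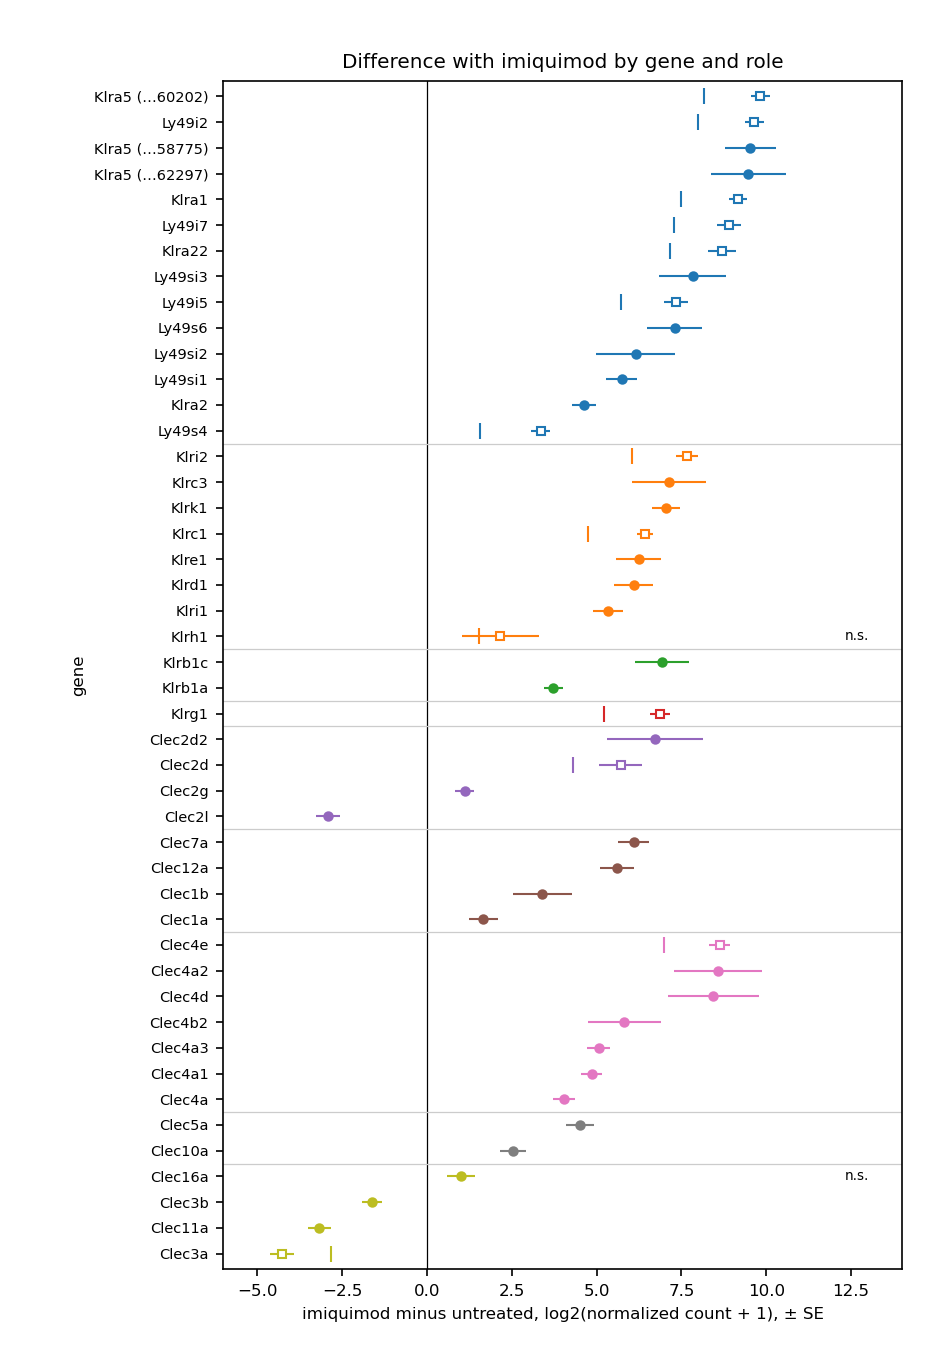
Difference of imiquimod minus untreated on the log2(normalized count + 1) scale with its limma standard error (horizontal axis) for each of the 46 rows (vertical axis, coloured by receptor group). Open squares mark genes at 0 reads in a whole group, whose vertical tick is the bound against 3 reads per library; n.s. marks the 2 rows that did not pass, and the 4 rows left of the zero line passed as lower.

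CD94, encoded by Klrd1, pairs with NKG2 proteins to read non-classical MHC class I, while NKG2D, encoded by Klrk1, reads stress-induced ligands and signals through the adaptor of Hcst. Of the 8 genes of this group, 7 were higher and Klrh1 did not pass, with a median difference of 6.34, or 6.06 with bounds. Klrk1 had 54.1, 34.1 and 88.2 normalized counts in the untreated libraries and 5633, 8072 and 8625 with imiquimod. The imiquimod libraries were all more than an order of magnitude above the untreated ones, a difference of 7.04 ± 0.42 (SE, n = 3 per group, limma adjusted p = 9.47e-05). Klrc1, which encodes the inhibitory NKG2A, had no untreated read and 80.1, 87.0 and 89.9 normalized counts with imiquimod, at least 26.8-fold higher (limma adjusted p = 2.24e-05). Its 3 imiquimod libraries lay close together, with an SD of 5.03 around a mean of 85.7 normalized counts.

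Klri1 and Klri2 encode the inhibitory and the activating partner that form heterodimers with KLRE1 in the rat. Klri2 had no untreated read and 269, 219.6 and 138 normalized counts with imiquimod, at least 65.3-fold higher (limma adjusted p = 3.7e-05). Klri1 had 4.61, 5.17 and 14.2 normalized counts in untreated skin and 319.6, 289 and 378 with imiquimod, a difference of 5.35 ± 0.45 (SE, n = 3 per group, limma adjusted p = 0.000265). The groups of both genes were far apart, so the inhibitory and the activating partner were both higher. Klrc3, an NKG2 family member, Klrd1 and Klre1 were also higher, with differences of 6.10 to 7.14. Klrd1 had 8.06, 5.17 and 21.3 normalized counts in untreated skin and 1199, 603 and 549 with imiquimod. Klrh1, a receptor known from the rat, was barely detected, with no untreated read and 29, 0 and 3 reads in imiquimod replicates 1, 2 and 3. Its difference did not pass (limma adjusted p = 0.104), and it passed only when imiquimod replicate 2, the library without a read, was left out (adjusted p = 0.0235).

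NKR-P1A, encoded by Klrb1a, is the activating receptor by which rat NK cells are often recognised. Its normalized counts were 128, 125 and 169 in untreated skin and 2139, 1866 and 1612 with imiquimod, a difference of 3.73 ± 0.28 (SE, n = 3 per group, limma adjusted p = 0.000199). This was the smallest difference among the genes with a Klr symbol that passed. Klrb1c, which RefSeq also lists as NKR-P1F, had 8.06, 3.10 and 0 normalized counts in untreated skin and 507, 389 and 335 with imiquimod, a difference of 6.92 ± 0.80 (limma adjusted p = 0.000849). Klrg1 encodes an inhibitory receptor for cadherins, first known as a mast cell antigen in the rat and carried by mature NK and T cells. It had no untreated read and 101, 156 and 97.3 normalized counts with imiquimod, at least 36.9-fold higher (limma adjusted p = 3.7e-05). In all of these genes every imiquimod library was above every untreated library.

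The CLEC2 proteins include ligands of the NKR-P1 receptors. In RefSeq, Clec2d and Clec2d2 lie between Klrb1a and Klrb1c, Clec2g lies beyond Klrb1c, and Clec2l lies on the same chromosome outside the NK gene complex. They did not move together: Clec2d, Clec2d2 and Clec2g were higher and Clec2l was lower. Clec2g was well detected in both groups, with 11456, 9792 and 14756 normalized counts in untreated skin and 26048, 26880.0 and 24110.2 with imiquimod. The groups did not overlap, and the difference was 1.12 ± 0.28 (SE, n = 3 per group, limma adjusted p = 0.0110), but it fell to 0.53 and did not pass once libraries were rescaled to the same median (adjusted p = 0.113). Clec2d, which encodes the osteoclast inhibitory lectin, had no untreated read and 18.3, 75.9 and 96.5 normalized counts with imiquimod, at least 19.9-fold higher (limma adjusted p = 0.000744). Clec2d2 had 12.7, 0 and 58.8 normalized counts in untreated skin and 983, 889.6 and 1077 with imiquimod, a difference of 6.71 ± 1.41 (limma adjusted p = 0.00645). Its wide error comes from the untreated libraries, and its difference was 5.10 without untreated replicate 2 and 8.05 without untreated replicate 3.

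Clec2l, which in humans is known mainly from brain, went the other way. It had 452, 451 and 654 normalized counts in untreated skin and 71.4, 90.1 and 45.8 with imiquimod. All imiquimod libraries were below all untreated ones, and the difference was -2.92 ± 0.36 (SE, n = 3 per group, limma adjusted p = 0.00104).

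The Dectin-1 cluster encodes receptors of myeloid cells, platelets and endothelium. All 4 of its rows were higher, with a median difference of 4.50. Clec7a encodes Dectin-1, the receptor for fungal beta-glucan, and had 24.2, 38.2 and 78.0 normalized counts in untreated skin and 3069, 2593 and 3125 with imiquimod. Clec12a, an inhibitory myeloid receptor that senses uric acid crystals, had 15.0, 35.1 and 52.7 against 1967, 1354 and 1341. Both genes showed every untreated library below 100 normalized counts, far under every imiquimod library. The differences were 6.09 ± 0.46 for Clec7a (SE, n = 3 per group, limma adjusted p = 0.000207) and 5.61 ± 0.50 for Clec12a (limma adjusted p = 0.000325).

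The other rows of the Dectin-1 cluster had smaller differences. Clec1a, known as a melanin sensor, had 99.1, 108 and 205 normalized counts in untreated skin and 293, 615 and 398 with imiquimod, a difference of 1.67 ± 0.43 (SE, n = 3 per group, limma adjusted p = 0.0128). Clec1b encodes CLEC-2, the platelet receptor for podoplanin, and had 0, 0 and 5.07 normalized counts against 12.2, 42.5 and 11.4, a difference of 3.40 ± 0.87 (limma adjusted p = 0.0125). The groups did not overlap in either gene, but Clec1b rested on 14 to 42 reads per imiquimod library. At a stricter threshold of 0.01 neither gene passed.

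The Dectin-2 cluster encodes Mincle, MCL and the DCIR receptors of dendritic cells, macrophages and neutrophils. RefSeq has 7 protein-coding genes between Clec4a1 and Clec4e, all 7 had a row, and all 7 were higher with imiquimod. Clec4e encodes Mincle, the activating receptor for mycobacterial glycolipid and for a nuclear protein of dead cells, and it had no untreated read but 291, 405 and 519.9 normalized counts with imiquimod. That was at least 126.7-fold higher (limma adjusted p = 2.17e-05). Clec4a1, a DCIR family member, had 484, 541 and 763 normalized counts in untreated skin and 21508, 16074 and 13947 with imiquimod, a difference of 4.85 ± 0.32 (SE, n = 3 per group, limma adjusted p = 0.000130). Clec4a3, another member of that family, had 623, 471 and 897 against 26692, 19125 and 19429.7, a difference of 5.06 ± 0.34 (limma adjusted p = 0.000142). Every imiquimod library held more than 10 times the counts of every untreated library in both of these genes.

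Clec4a itself encodes DCIR, an inhibitory receptor of dendritic cells. It had 73.7, 68.2 and 48.6 normalized counts in untreated skin and 1359, 896 and 929 with imiquimod, a difference of 4.04 ± 0.32 (SE, n = 3 per group, limma adjusted p = 0.000226). Clec4a2, Clec4b2 and Clec4d, which encodes MCL, the partner of Mincle, had differences of 5.82 to 8.59. Their untreated reads were sparse, with at least 1 library at 0 in each gene, and the difference of Clec4d was 8.43 ± 1.34 with all libraries and 10.06 without untreated replicate 3, the only untreated library with a read of it. The summed normalized counts of the 7 genes were 1211, 1081 and 1772 in untreated skin and 54694, 40766 and 39691 with imiquimod.

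**Figure D3:**
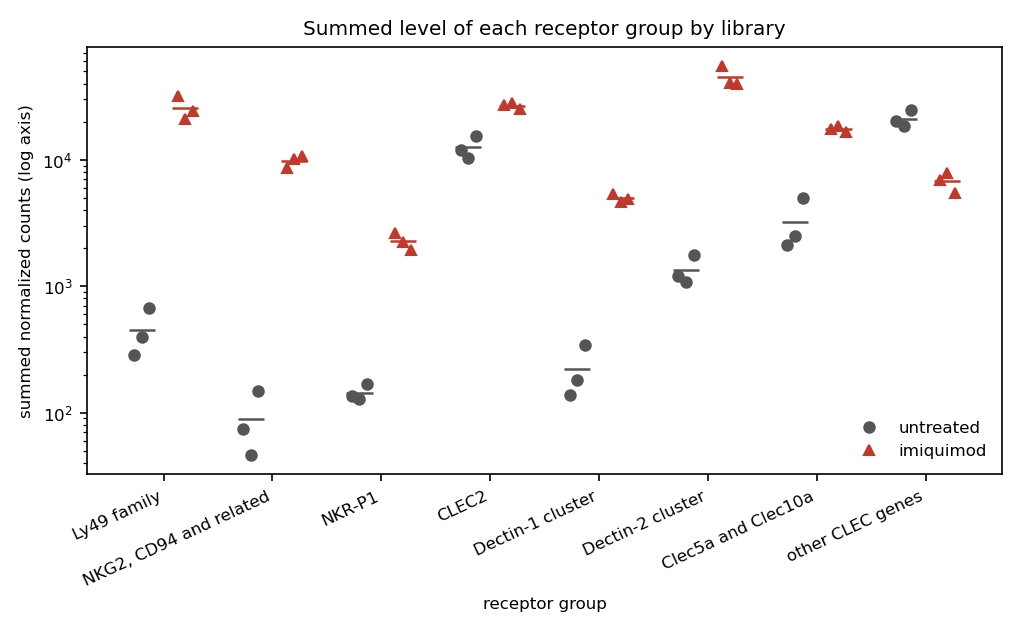
Summed normalized counts of each receptor group (log axis) in each library, with circles for untreated and triangles for imiquimod libraries and a line at the group mean of 3. The imiquimod libraries are higher in all plotted groups but the last, other CLEC genes, whose sums are 20286, 18485 and 24704 in untreated skin and 6901, 7849 and 5483 with imiquimod.

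Among the other myeloid lectins, Clec5a encodes MDL-1, which signals through the adaptor of Tyrobp in neutrophils and monocytes. It had 17.3, 11.4 and 11.1 normalized counts in untreated skin and 529.5, 219.6 and 279 with imiquimod, a difference of 4.51 ± 0.41 (SE, n = 3 per group, limma adjusted p = 0.000362). Clec10a encodes MGL, the galactose-type lectin of macrophages and dermal dendritic cells, and had 2097, 2469.9 and 4999 against 16958, 18255 and 16249, a difference of 2.53 ± 0.39 (limma adjusted p = 0.00234). Neither gene's groups overlapped, and Clec10a was already well detected in untreated skin.

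The 4 remaining CLEC genes encode no receptor of this kind, and 3 of them were lower. Clec11a encodes a secreted stem cell growth factor, and had 3378, 2999.9 and 5458 normalized counts in untreated skin and 405, 389.6 and 484 with imiquimod, a difference of -3.16 ± 0.33 (SE, n = 3 per group, limma adjusted p = 0.000572). Clec3b encodes tetranectin, a secreted plasminogen-binding protein, and had 16465, 15215 and 18749.8 against 6018, 6519 and 4067, a difference of -1.63 ± 0.30 (limma adjusted p = 0.00415). Clec3a, known from cartilage, had 24, 17 and 12 reads in untreated skin and none with imiquimod, at least 7.08-fold lower (limma adjusted p = 0.000255). In these 3 genes all imiquimod libraries were below all untreated ones. Of the 3 listed fibroblast markers, of 6, the collagen genes Col1a1 and Col3a1 were lower, with differences of -2.99 and -2.40, while Pdgfra did not pass, with 2374, 1585 and 4186 normalized counts in untreated skin and 4037, 7577 and 5468 with imiquimod. The summed level of these markers was 1652920.0 to 3747590.0 normalized counts in untreated libraries and 357493 to 369659 with imiquimod, and whether fibroblast RNA had a part in the lower CLEC genes was not tested. Clec16a, which encodes an endosomal protein of mitophagy, had 416, 252 and 483 normalized counts in untreated skin and 478, 940.2 and 933 with imiquimod. Its groups overlapped and the difference of 1.01 ± 0.42 did not pass (limma adjusted p = 0.0558), although it did without imiquimod replicate 1 (1.34, adjusted p = 0.0214).

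By position, most members are on the same chromosome, in several separate stretches. In RefSeq GRCr8, 41 of the 46 rows are of genes on chromosome 4, and 39 of these were higher, 1 lower and 1 not past the threshold. The 5 other rows lie on chromosomes 1, 8, 10 and 19, and 1 of them, Clec10a, was higher. Between Klrb1a and Klra2, the stretch of the NK gene complex, RefSeq has 59 protein-coding genes, of which 31 had a row under their own symbol. These gave 30 member rows, 29 of them higher and Klrh1 not past the threshold, and rows for Cd69, Clec9a and Olr1, which were also higher. In the Ly49 stretch from Ly49si3 to Klra2, 11 of 20 protein-coding genes had rows under their own symbol, and all 13 of these rows were higher. Another 5 rows outside the naming rule carry LOC symbols but descriptions of this family, and all 5 were higher. By their gene numbers 3 of them are RefSeq's Clec2d2l1, Klra4 and Ly49s8, which are among the 27 genes counted above as having no row of their own symbol.

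The imiquimod libraries differed among themselves in a way that many of the NK receptor genes shared. Imiquimod replicate 1 was the highest of the 3 libraries in 17 of the 25 Klr and Ly49 rows (68.0%) and in 11 of the 14 Ly49 rows, while it was the highest in 34.8% of the 2831 rows that were higher with imiquimod. The median Ly49 row lay 0.48 log2 units above its group mean in imiquimod replicate 1, 0.23 below it in replicate 2 and 0.06 below it in replicate 3. In 6 of the 25 rows, Klra2 and Klrk1 among them, replicate 1 was the lowest. Of the NK cell marker genes, 9 of 10 were also highest in imiquimod replicate 1, as were 5 of the 8 listed T cell markers (62.5%). In the Dectin-2 cluster 4 of 7 genes were highest there, but Clec4d and Clec4e were lowest in replicate 1 and highest in replicate 3. Of the 5 listed neutrophil markers, S100a8, S100a9, Csf3r and Mpo were highest in replicate 3 too, and Cxcr2 was highest in replicate 2. Mpo, however, was not higher with imiquimod than in untreated skin. These orders rest on 3 libraries and carry no test.

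**Figure D4:**
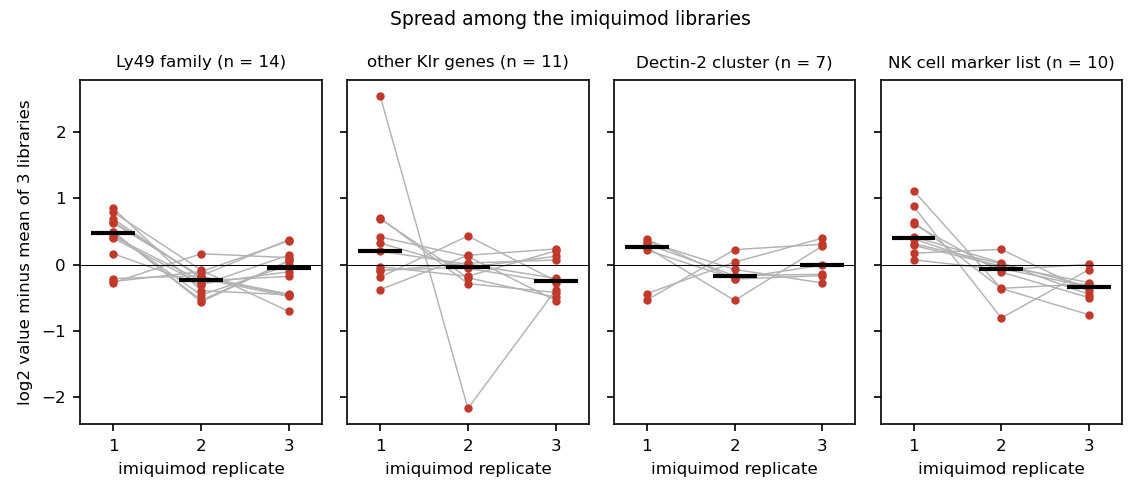
Each gene's log2(normalized count + 1) minus its mean over the 3 imiquimod libraries (vertical axis) in imiquimod replicates 1, 2 and 3 (horizontal axis) for 4 gene groups, with a grey line per gene and a black bar at the median of the group. Replicate numbers have no order; the Ly49 and NK marker panels have their highest median in replicate 1, and the gene with the widest spread is Klrh1.

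Genes that the receptors signal through were higher as well. Of 18 adaptors and kinases, 13 had a row and all 13 were higher, with a median difference of 3.96. Fcer1g, the gamma chain used by Mincle and several other members, had 1129.9, 1224 and 1922 normalized counts in untreated skin and 44467, 28043 and 27360.2 with imiquimod, a difference of 4.55 ± 0.35 (SE, n = 3 per group, limma adjusted p = 0.000222). Lcp2, an adaptor downstream of Syk-family kinases, had 227, 272 and 577 against 10829, 12709.9 and 10296, a difference of 5.09 ± 0.41 (limma adjusted p = 0.000240). Of the 3 inhibitory phosphatase genes, the 2 with a row were both higher, Inpp5d by 3.71 ± 0.41 and Ptpn6 by 2.36 ± 0.27 (limma adjusted p = 0.000744 and 0.000852). Genes of both the activating and the inhibitory branch were higher in the same libraries.

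Ligands of NKG2D had rows for 3 of 9 listed genes, and all 3 were higher. Raet1l had 0, 5.17 and 2.03 normalized counts in untreated skin and 54.9, 41.5 and 41.7 with imiquimod, a difference of 4.14 ± 0.67 (SE, n = 3 per group, limma adjusted p = 0.00271). Raet1d had 13.8, 9.30 and 6.08 against 34.8, 51.6 and 48.2, a difference of 2.14 ± 0.37 (limma adjusted p = 0.00336). Micb was the third, and its groups overlapped. NK receptors outside the lectin family had rows for 12 of 13 genes, all higher, with a median difference of 5.29, or 4.97 with bounds. The leading genes by adjusted p were Fcgr3a and Tigit. Fcgr3a, the Fc receptor of antibody-dependent killing, had 39.2, 24.8 and 32.4 normalized counts against 43794, 26508 and 26177. With imiquimod, the macrophage marker Cd68 had 34297.5, 22159 and 20826 normalized counts, and the NK cell marker Ncr1 had 292, 304 and 195. Which cells carried Fcgr3a was not tested. Tigit had no untreated read and 158, 159 and 88.3 normalized counts with imiquimod.

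Markers of leukocytes moved with these genes. All 10 NK cell markers were higher, with a summed level of 194 to 332 normalized counts in untreated libraries and 11607 to 21178 with imiquimod. So were all 8 listed T cell markers (565 to 2029 against 19096 to 24442), all 8 macrophage markers (14065 to 29331 against 218711 to 265412) and all 6 dendritic cell markers (236 to 681 against 4927 to 5867). Of 5 listed neutrophil markers, of 6, 4 were higher and Mpo did not pass (2908 to 4695 against 72320.4 to 115215). Mpo had 384, 637 and 457 normalized counts in untreated skin and a lower 212, 31.4 and 293 with imiquimod. That summed level was mainly of S100a9 and S100a8, with imiquimod means of 55321 and 34812, against 3325 for Csf3r and 322 for Cxcr2. The 3 listed B cell markers, of 5, were higher at a low level (16.1 to 24.8 against 90.1 to 114), with Cd79b at 0 in all untreated libraries. The 2 listed platelet markers, of 4, were higher (583 to 1290.1 against 1847 to 4221), as were the 3 listed endothelial markers, of 6 (2553 to 3867 against 6319 to 11539). Of the 3 listed keratinocyte markers, of 6, Krt14 and Dsg3 were higher and Krt1 did not pass, with the 3 summing to 332069 or more in every library. Krt1 had 232847, 156576 and 141880 normalized counts in untreated skin and a lower 123034, 91640 and 22953 with imiquimod, so the members of this sum went opposite ways. In bulk skin, more cells of a type and more RNA per cell cannot be told apart, and the part of these cell types in the receptor differences was not tested. Whether NK cells or T cells carried the genes of the NK cell list was not tested either. In the T cell list the levels with imiquimod were uneven. Cd8a had 12949, 14457 and 9125 normalized counts and Cd4 had 3296, 4785 and 5051. Cd8b had 1899, 1890 and 1819, and Cd3e had 1333, 976 and 750, so the summed level mainly followed Cd8a and Cd4.

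For epidural lidocaine, the question was which receptor genes differed between imiquimod skin with and without the injections. No Klr or Ly49 row was in that table, which held 3 CLEC genes with at most 231 reads per library. These values use the same 3 imiquimod libraries as the comparison above, so the results of the 2 comparisons are not independent. Clec4m was higher past the threshold, where 11.0% of the 399 rows were, Clec2e was lower, where 21.1% were, and Clec2l did not pass. The groups did not overlap in any of the 3 genes, against 71.9% of all rows. The median difference over all rows was -1.17.

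Clec4m, a relative of DC-SIGN that RefSeq also lists as Cd209b, had 0, 4.05 and 4.90 normalized counts with imiquimod and 43.2, 7.72 and 18.6 with lidocaine added. The lidocaine libraries were all higher but spread widely, from 9 to 44 reads, and the difference was 2.66 ± 0.80 (SE, n = 3 per group, limma adjusted p = 0.0371). It did not pass when imiquimod replicate 1 or 2 or lidocaine replicate 1 or 3 was left out, with differences from 1.85 to 3.25 over all 6 such runs. Clec2e, a CLEC2 gene of the NK complex, had 21.8, 16.2 and 38.4 normalized counts with imiquimod and 7.86, 9.43 and 3.72 with lidocaine, 3 to 11 reads per library. The lidocaine libraries were all lower, and the difference was -1.71 ± 0.53 (limma adjusted p = 0.0387). It passed in only 1 of the 6 runs that left out a library, that without lidocaine replicate 1, with differences from -1.98 to -1.37.

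Clec2l, the CLEC2 gene that was lower with imiquimod, had 71.4, 90.1 and 45.8 normalized counts with imiquimod and 227, 96.0 and 118 with lidocaine. All lidocaine libraries were above all imiquimod ones but below the 451 to 654 of the untreated libraries, and the difference of 1.03 ± 0.52 did not pass (limma adjusted p = 0.0866). When libraries were rescaled to the same median over the listed rows with reads in every library, the rows higher and lower went from 44 and 84 to 125 and 30. Clec2l then passed with a difference of 1.72 (limma adjusted p = 0.0267), and Clec2e no longer did. The listed rows were selected as differing, and rescaling on them moved the median difference of all rows from -1.17 to -0.48. This setting therefore cannot decide whether Clec2l or Clec2e differed. The only rows of the adaptor, phosphatase, ligand, NK receptor and marker lists in this table were Sh2d1a, Xcl1, Ccl5, Krt1 and Krt10, and none of them passed (limma adjusted p from 0.0703 to 0.0913).

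**Figure D5:**
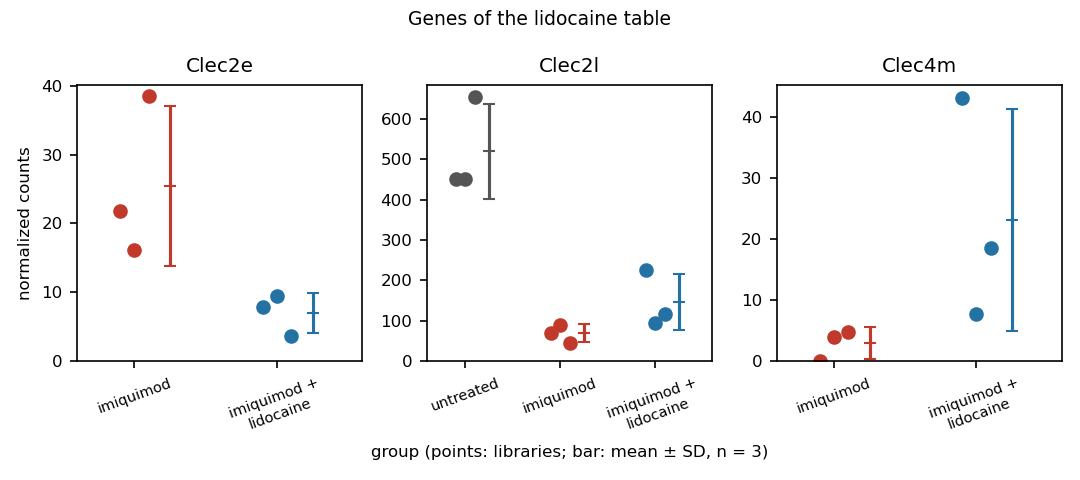
Normalized counts (vertical axis, from 0) of the 3 genes of the lidocaine table in each library of each group (points), with the mean and SD of 3 libraries beside them. The untreated libraries are shown for Clec2l only, at 451 to 654, since the other genes have no row in the imiquimod table.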

How the data were processed

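RNA-seq libraries of 9 rat back skin samples were grouped by their titles. Per the labels' protocols, skin was frozen and ground, TRIzol was used for the RNA, and libraries were standard Illumina ones. Tools named in the submitters' processing notes are DESeq2, STAR 2.5.3a and bcl2fastq. Not given in the sources used here are the genome build, annotation, counting, strand setting and rule for selecting rows.

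The authors deposited 2 tables of selected genes with log2(normalized count + 1) per library; in both, group means differed by at least 1.00 on that scale. Once the log was undone, each library's values up to 2000 reads were all whole multiples, within 0.01, of the size of 1 read (0.817 to 1.24 normalized counts), which gave the reads. Listed reads per library were 15947423 to 22929894 in the imiquimod table and 417714 to 803921 in the lidocaine table; full depth is unknown. Bounds use 3 reads per library and cover counting error only, as reads are not independent molecules. By chi-square over genes, replicates differed far beyond sampling noise (124 to 682 per degree of freedom).

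Each table was fitted alone with limma 3.58.1 (lmFit, eBayes) in R 4.3.3, 2 groups of 3 libraries and no block, at a threshold of 0.05 after Benjamini-Hochberg adjustment over its rows. The log2(normalized count + 1) scale understates differences of low genes. Python 3.11.15 with numpy 2.4.6, pandas 2.3.3 and matplotlib 3.10.9 did the rest, and the test was tested on simulated data. Members and lists were chosen with earlier results of these data known. Values are given in full for the 4 members of each receptor group with the smallest adjusted p, for all that were lower or did not pass, for all in the lidocaine table, and for the 2 leading genes of each signalling, ligand or receptor list; Klrd1, Ly49si1, Ly49si2, Ly49si3 and the motifs were picked in addition, with values known. Gene positions and promoters are RefSeq's, of assembly GRCr8, matched by symbol (46 of 46 member symbols). Alternatives covered the threshold, a minimum difference, the pseudocount, a minimum mean, scaling, variance trend, adjustment over all protein-coding genes, leaving out each library and a replicate block.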

Additional observations from a re-analysis of the deposited data

How the results depend on the processing

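With imiquimod, 41 to 45 of the 46 member rows passed under every alternative that tested all of them, and 42 of the 43 whose mean reached 10 normalized counts; no member changed direction. Clec2g, Clec1a and Clec1b did not pass at a threshold of 0.01, Clec2g, Clec1a and Clec3b lay under a minimum difference of 2, Clec2g was lost on rescaling, and Clec16a passed with a variance trend. The counts of members higher and lower and of context genes stayed within 1.5 times their main values in all settings. With lidocaine, the count of members higher went from 1 to 0 at a threshold of 0.01, with adjustment over all 23154 protein-coding genes, with a mean of at least 10 (333 rows) and with a pseudocount of 0.1, and to 2 on rescaling. The count of members lower went from 1 to 0 in those 4 settings and also with a minimum difference of 2, a replicate block and rescaling. Leaving out 1 library gave 0 to 1 for each. Apart from the settings that test fewer rows or are stricter, the cause was not tested. Rows of the lidocaine table called with a mean of at least 10 were 1 higher and 0 lower, and with adjustment over all protein-coding genes 1 and 1. Replicate numbers did not pair the libraries (correlations of same-numbered deviations -0.23 to -0.01 with imiquimod and -0.18 to -0.06 with lidocaine), and the replicate block left 44 members called with imiquimod, the same genes, and 1 with lidocaine, Clec4m. With 0 to 47 reads per library, the values of Clec2e and Clec4m are limited by depth.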

Other observations

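Further genes of this biology, chosen after their values were seen, had the following values in the comparison of imiquimod with untreated skin. Hcst, the adaptor of NKG2D, had 23.0, 32.0 and 23.3 normalized counts in untreated skin and 648, 288 and 339 with imiquimod, a difference of 3.90 ± 0.39 (SE, n = 3 per group, limma adjusted p = 0.000503). Tyrobp, the adaptor of activating Ly49 receptors and of MDL-1, had 700.3, 917 and 1004 against 13695, 7111 and 7995, a difference of 3.41 ± 0.35 (limma adjusted p = 0.000590). Both adaptors were, like 11 of the 14 Ly49 rows and 34.8% of all rows higher with imiquimod, highest in imiquimod replicate 1. This was not particular to them, as Fcer1g, Lck, Syk and Card9 of the same list were highest there too, while Lcp2 and Sh2d1b were not. Among the relatives with LOC symbols, LOC689757 (Clec2d2l1 by its RefSeq gene number) had 5.76, 16.5 and 4.05 normalized counts in untreated skin and 912, 424 and 915 with imiquimod, a difference of 6.39 ± 0.58 (limma adjusted p = 0.000346). LOC690020 (Klra4 by its RefSeq gene number) had no untreated read and 10.5, 11.1 and 8.17 normalized counts with imiquimod.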
